A study of Homo sapiens with 14 samples.

Results

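The genes described here drive entry into and passage through mitosis, and their messages were followed in WI-38 cells, a fibroblast strain from human lung, over long culture, most of it with added hTERT, which encodes the protein part of telomerase. The set comprises 40 named genes of mitosis and G2/M, the phase before division. A gene was taken as measured when a row of the array carried its symbol alone, and the row with the highest mean over the 14 arrays stood for it, which gave 39 of the 40 out of 18377 genes. The 1 remaining gene, CENPA, lay on a row that also names SLC35F6, so no value is given for it. The study followed a course of cell culture in duplicate on Affymetrix Gene 1.0 ST arrays, and its title concerns the formation of differentially methylated regions. The labels give 7 groups of 2 arrays: WI-38 primary cells at passage 19, hTERT-immortalized WI-38 cells at passages 39, 50, 58, 67 and 95, whose labels carry an A, and hTERT-immortalized WI-38 cells at passage 96, whose label carries a B. All cells were grown in the same serum-containing medium with weekly passaging at a fixed seeding number, and the meaning of the letters is not stated. Each group is called by its letter and passage, and values are given in the order of replicates 1 and 2. All levels are log2 values as deposited, so a difference of 1 is a doubling of signal.

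As background, cells build up cyclin B and its partner CDK1 toward the end of the cell cycle, and the transcription factor FOXM1 helps to switch on a large block of genes for chromosome condensation, spindle assembly and cytokinesis. In cells that stop cycling this block is shut down through p21, RB-family proteins and the DREAM complex. In cultured fibroblasts, which leave the cycle as they age, the summed level of such genes is a common readout of proliferation. A lower share of cycling cells and less message per cycling cell cannot be told apart in RNA from whole cultures.

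These genes are known to share promoter elements: the CCAAT box, bound by NF-Y, and the cell cycle genes homology region, whose core is written TTTGAA or TTTAAA. RefSeq promoter windows of 300 bases (GRCh38.p14, 250 before and 50 after a transcript's start) were matched by symbol to 33 of the 39 genes, with 40 windows, several of which overlap. The 6 genes not matched were FOXM1, AURKA, TTK, UBE2C, TPX2 and BIRC5. The letters CCAAT stood, on either strand, in 31 of the 40 windows (77.5%) against 34.6% of all 35116 windows in the table. TTTGAA stood in 27 (67.5%) against 15.2% of all windows, and TTTAAA, which reads the same on both strands, in 14 (35.0%) against 12.2%. Each of the 33 genes had at least 1 of the 3 motifs in a window, but the share of all genes with at least 1 was not taken. CCAAT together with a homology core stood in 26 windows (65.0%), against 9.27% of all. The middle position of the 39 TTTGAA matches was base -29 relative to the start, and that of the 66 CCAAT matches was -78.5. The sequence TTCCCGC, which can be read by E2F factors, stood in 3 of the 40 windows (7.50%) and in 6.55% of all. In the 38 windows of 31 DNA replication and G1/S genes TTTGAA stood in 1 window (2.63%) and TTCCCGC in 16 (42.1%), so these motifs were distributed the other way round. CCAAT stood in 24 of those windows (63.2%), also above its share of all windows. A match is a run of letters and not a measured binding site.

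The 170 bases before the most upstream listed start are shown for 8 genes whose values are followed below, because they carry these shared elements. Capitals mark the CCAAT box (CCAAT, or its reverse complement as ATTGG) and either homology core (TTTGAA, which on the other strand reads as TTCAAA, as well as the palindrome TTTAAA). The intervals on GRCh38.p14, with the strand in brackets, were chr10:128126424-128126593 (-) for MKI67, chr10:60778161-60778330 (+) for CDK1, chr5:69166980-69167149 (+) for CCNB1, chr16:23678719-23678888 (+) for PLK1, chr17:8210250-8210419 (-) for AURKB, chr15:40160899-40161068 (+) for BUB1B, chr17:40417897-40418066 (-) for TOP2A and chr4:103198344-103198513 (-) for CENPE.
MKI67: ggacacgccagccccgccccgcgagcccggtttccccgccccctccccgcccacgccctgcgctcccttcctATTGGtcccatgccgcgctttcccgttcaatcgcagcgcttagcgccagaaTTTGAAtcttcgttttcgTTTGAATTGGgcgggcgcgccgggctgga
CDK1: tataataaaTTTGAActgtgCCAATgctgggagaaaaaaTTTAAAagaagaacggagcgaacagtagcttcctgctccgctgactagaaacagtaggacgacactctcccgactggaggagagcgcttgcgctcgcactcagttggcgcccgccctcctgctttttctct
CCNB1: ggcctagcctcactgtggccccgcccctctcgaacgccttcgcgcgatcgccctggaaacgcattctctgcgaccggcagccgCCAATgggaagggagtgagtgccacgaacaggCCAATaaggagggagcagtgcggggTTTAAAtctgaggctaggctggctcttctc
PLK1: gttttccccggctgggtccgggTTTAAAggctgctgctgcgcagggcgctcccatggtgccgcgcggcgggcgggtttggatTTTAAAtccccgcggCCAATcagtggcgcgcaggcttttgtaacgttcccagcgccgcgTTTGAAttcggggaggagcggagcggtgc
AURKB: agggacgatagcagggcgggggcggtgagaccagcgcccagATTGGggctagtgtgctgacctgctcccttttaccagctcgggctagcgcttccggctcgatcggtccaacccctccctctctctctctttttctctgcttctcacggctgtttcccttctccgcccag
BUB1B: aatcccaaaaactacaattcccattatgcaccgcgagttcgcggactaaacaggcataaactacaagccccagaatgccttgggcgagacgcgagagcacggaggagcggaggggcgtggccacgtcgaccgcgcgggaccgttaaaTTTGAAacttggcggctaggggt
TOP2A: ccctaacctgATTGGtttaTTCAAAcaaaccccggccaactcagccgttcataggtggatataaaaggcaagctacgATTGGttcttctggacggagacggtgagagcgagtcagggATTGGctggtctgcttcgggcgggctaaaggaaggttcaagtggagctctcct
CENPE: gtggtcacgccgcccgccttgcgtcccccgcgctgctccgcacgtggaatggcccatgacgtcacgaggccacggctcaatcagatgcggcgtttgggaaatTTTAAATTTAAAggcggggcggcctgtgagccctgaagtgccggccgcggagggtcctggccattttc
In the MKI67 run, 1 homology core overlaps a CCAAT box by shared letters. PLK1 has 1 CCAAT box and 3 homology cores, and CCNB1 has 2 CCAAT boxes followed by a TTTAAA core close to the start. BUB1B has a homology core and no CCAAT box in this run, AURKB has a CCAAT box and no core, and CENPE has 2 adjoining TTTAAA cores and no CCAAT box.

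Before the members' values, the arrays' labels were set against the data. TERT, which the hTERT construct should raise, read 7.07 in the array labelled primary replicate 1 and 11.70 in the array labelled primary replicate 2, while the 12 arrays labelled hTERT lay between 10.67 and 12.18. TERT thus speaks against the label of primary replicate 2, which limits every direction drawn from the primary arrays. On the rows that belong to none of the 39 genes, 0 of the 14 arrays had its own label partner as the closest array. Instead 5 pairs of mutually closest arrays crossed the labels. Replicate 2 of primary was paired in this way with replicate 1 of A39, and so on for A39 to A50, for A50 to A58 and for A58 to A67. The last such pair joined replicate 2 of A95 to replicate 1 of B96. Whether the replicate labels are shifted along the series was not tested. Groups are used as labelled, and every group mean, within-label spread and p-value below carries this limit. Fibroblast markers were high, with all 8 genes of the list between percentiles 89.2 and 99.9 of the gene means. The 4 endothelial markers lay between percentiles 13.8 and 26.7. In the other lists the lowest marker was EPCAM of epithelium at percentile 6.80, PTPRC of blood at 5.13 and MYH11 of smooth muscle at 8.42. The highest of the same lists were KRT18 at percentile 91.4, CD68 at 86.7 and ACTA2 at 99.0. Above the median gene were 2 of the 5 epithelial, 1 of the 5 blood and 2 of the 4 smooth muscle markers. The summed level of the lists, taken as the median deviation of their genes, moved over the arrays by -0.53 to 0.35 for the fibroblast markers and by -0.51 to 0.33 for the epithelial, -0.16 to 0.30 for the endothelial, -0.25 to 0.22 for the blood and -0.44 to 0.29 for the smooth muscle ones, and their part in the results below was not tested. The fibroblast list lay at 0.24 to 0.35 from primary replicate 2 through A58 replicate 1 and at -0.53 to -0.33 from A58 replicate 2 through B96 replicate 1, with -0.021 in primary replicate 1 and 0.16 in B96 replicate 2.

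The mitotic genes moved as a block across the 14 arrays, and the block did not follow the labels. For each gene the deviation from its own mean over the arrays was taken, and the median of the 39 deviations describes an array. This median was lowest in A50 replicate 1 at -1.04 and A39 replicate 2 at -1.03, and low in A58 replicate 1 at -0.64 and A50 replicate 2 at -0.54. It was near 0 in A95 replicate 2 at -0.016, A39 replicate 1 at 0.034, B96 replicate 1 at 0.074, primary replicate 2 at 0.10 and B96 replicate 2 at 0.11. It was high in A67 replicate 1 at 0.45, A58 replicate 2 at 0.48 and primary replicate 1 at 0.52, and highest in A67 replicate 2 at 0.75 and A95 replicate 1 at 0.75. In the 4 lowest arrays all 39 genes were below their own means, and in the 5 highest all 39 were above.

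**Figure D1:**
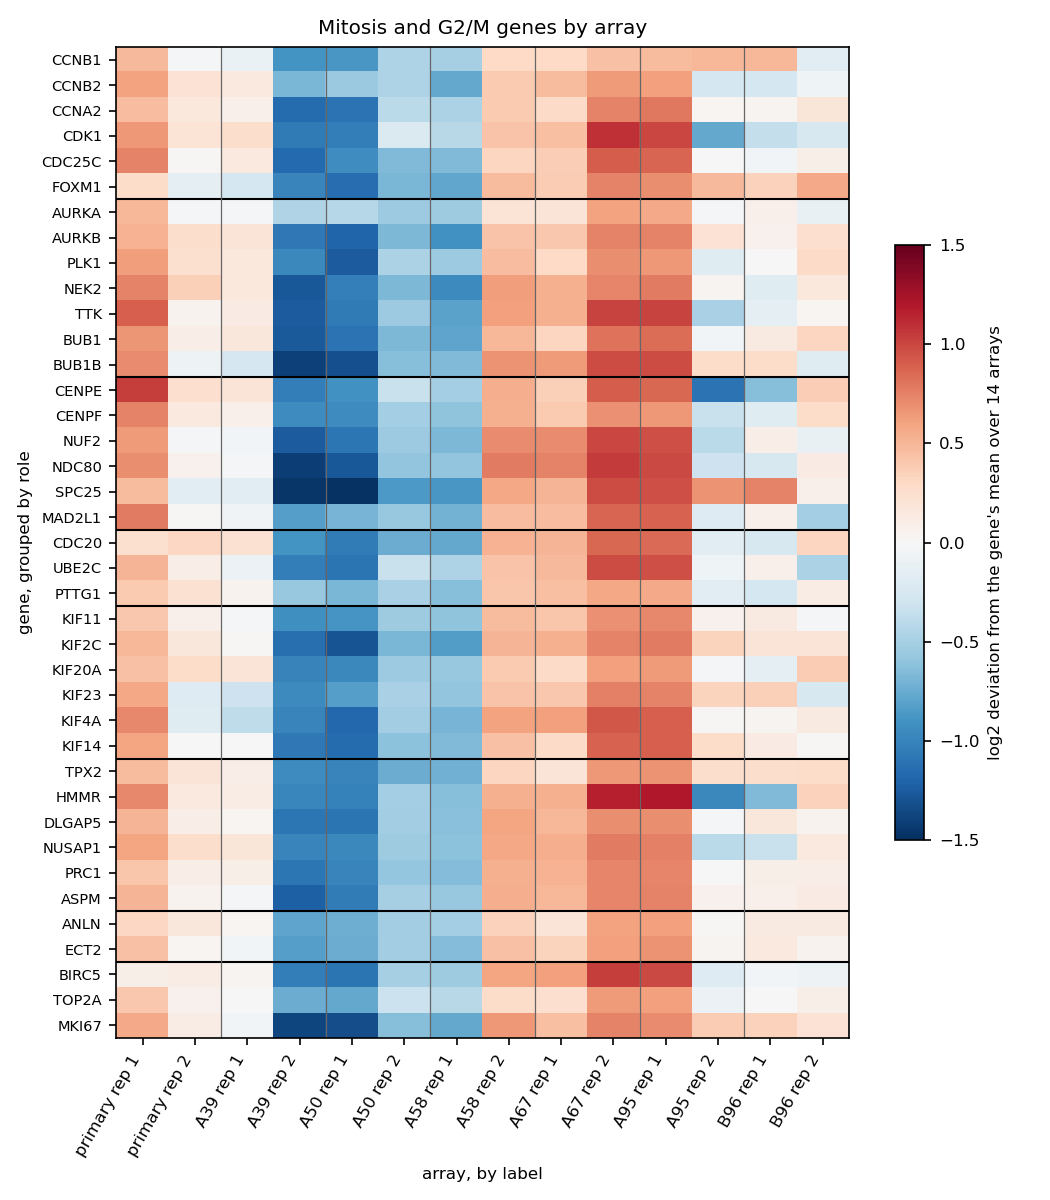
Heat map of the log2 deviation of each of the 39 genes (vertical axis, grouped by role with black lines) from its own mean over the 14 arrays (horizontal axis, in the order of the labels, grey lines between labels). Red is above and blue below the mean: A39 replicate 2 through A58 replicate 1 are blue in every gene, A58 replicate 2 through A95 replicate 1 are red in every gene, and A95 replicate 2 and B96 replicate 1 are mixed.

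The spread of these genes was wide beside that of other genes. Their range from lowest to highest array had a median of 1.95 log2, against 0.79 over all 18377 genes, and all 39 ranged over at least 1 log2, as did 30.9% of all genes. The widest ranges were 2.46 log2 for NDC80 and for SPC25, both subunits of the kinetochore's microtubule-binding NDC80 complex, which is a 5.50-fold span. The narrowest were 1.15 log2 for AURKA, a kinase of spindle poles, and 1.26 log2 for PTTG1, the securin that holds back separase. The lowest value of a gene lay in A39 replicate 2 for 20 genes and in A50 replicate 1 for 16, and the highest lay in A67 replicate 2 for 23 and in A95 replicate 1 for 13. Ties were counted for the earlier array: AURKB, TTK, BUB1B, DLGAP5 and PRC1 had the same highest value in A67 replicate 2 and A95 replicate 1. As a description over the 14 arrays, which share libraries across genes, Pearson's r of a gene with the median of the other 38 ran from 0.83 for CENPE to 0.996 for PRC1, with a median of 0.973. Because they move together, the 39 genes are far from 39 separate observations.

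Much of this spread lay between arrays that share a label. The median absolute difference of the 39 genes was 1.14 between the arrays labelled A58, 1.12 between those labelled A39, 0.73 in A95, 0.45 in A50, 0.42 in primary, 0.35 in A67 and 0.19 in B96. The same measure over all genes was 0.18 to 0.30 in these 7 pairs. In the 5 mutually closest pairs it was 0.050 to 0.10 for the 39 genes and 0.080 to 0.14 for all genes. Between A67 replicate 2 and A95 replicate 1, a pair picked after the values were seen, it was 0.030 and no gene differed by more than 0.10. The 2 arrays of a label are biological duplicates per the labels' protocols. The p-values of group comparisons below measure differences against the spread between such duplicates, pooled over the 7 labels. Those of the slope on passage measure it against the scatter of the arrays about the fitted line.

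**Figure D2:**
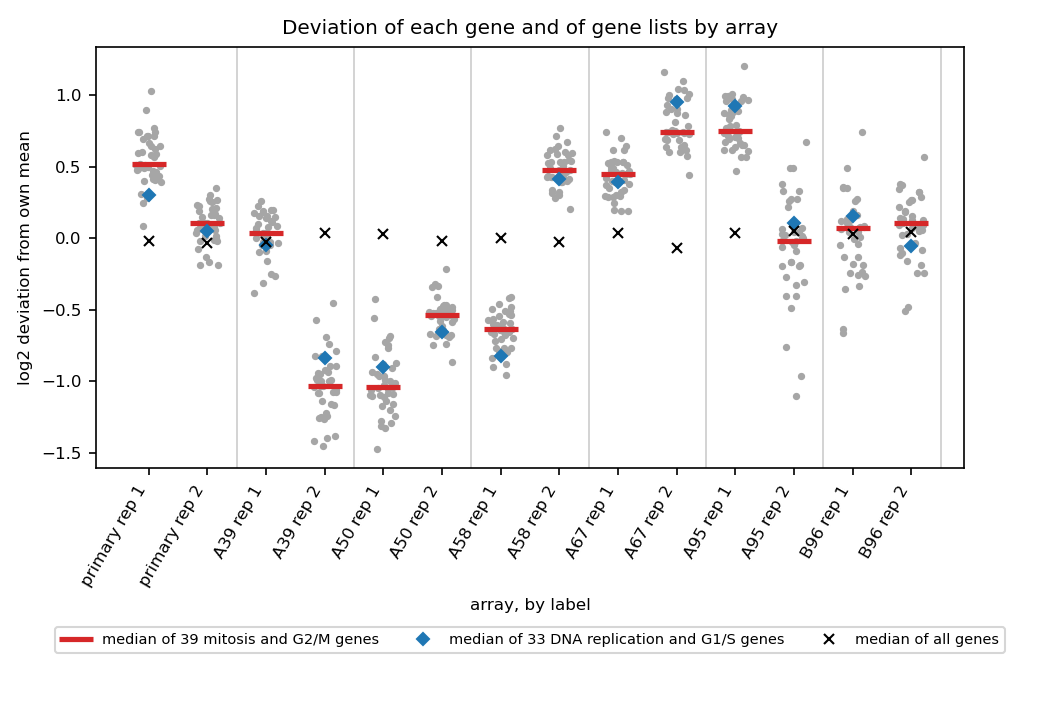
Log2 deviation from the own mean (vertical axis) in each of the 14 arrays (horizontal axis) for the 39 genes (grey points), with the median of the 39 (red bars), the median of 33 DNA replication and G1/S genes (blue diamonds) and the median of all genes (crosses). The red bars run from -1.04 in A50 replicate 1 to 0.75 in A95 replicate 1, while the crosses stay between -0.068 and 0.053.

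Among the cyclins, their kinase and the transcription factor, CCNB1, which encodes the cyclin that activates CDK1 for mitosis, read 11.94 and 11.44 in the primary pair, 11.36 and 10.56 in the A39 pair, 10.58 and 10.99 in the A50 pair, 10.96 and 11.76 in the A58 pair, 11.76 and 11.90 in the A67 pair, 11.93 and 11.95 in the A95 pair and 11.95 and 11.30 in the B96 pair. Its 3 highest values were in A95 replicate 2, B96 replicate 1 and primary replicate 1. It thus stayed high in A95 replicate 2 and B96 replicate 1, where the members' median deviation was -0.016 and 0.074, but not in B96 replicate 2. CDK1, the kinase itself, read 9.85 and 9.41 in the primary pair, 9.46 and 8.14 in the A39 pair, 8.16 and 8.99 in the A50 pair, 8.79 and 9.63 in the A58 pair, 9.65 and 10.30 in the A67 pair, 10.20 and 8.44 in the A95 pair and 8.85 and 8.96 in the B96 pair. It was lowest in A39 replicate 2 and A50 replicate 1 and was again low in A95 replicate 2, an array in which CCNB1 was at its highest. FOXM1 read 10.00 and 9.59 in the primary pair, 9.46 and 8.73 in the A39 pair, 8.58 and 9.03 in the A50 pair, 8.94 and 10.20 in the A58 pair, 10.10 and 10.47 in the A67 pair, 10.42 and 10.21 in the A95 pair and 10.07 and 10.29 in the B96 pair. Both B96 arrays and both A95 arrays were above 10, and the arrays labelled A39 and A50 were below 9.5. The other members of this role are given by their ranges. CCNA2, the cyclin of S phase and early mitosis, ranged between 9.66 in A39 replicate 2 and 11.61 in A95 replicate 1, CCNB2, a second B-type cyclin, between 9.72 in A58 replicate 1 and 11.13 in A67 replicate 2, and CDC25C, a phosphatase that activates CDK1, between 6.85 in A39 replicate 2 and 8.92 in A67 replicate 2.

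The next role is that of the mitotic and checkpoint kinases. PLK1, a kinase of centrosome maturation and mitotic exit, read 11.02 and 10.63 in the primary pair, 10.55 and 9.43 in the A39 pair, 9.15 and 9.92 in the A50 pair, 9.85 and 10.86 in the A58 pair, 10.69 and 11.09 in the A67 pair, 11.05 and 10.21 in the A95 pair and 10.39 and 10.68 in the B96 pair. AURKB, the enzyme of the chromosomal passenger complex, read 10.05 and 9.80 in the primary pair, 9.73 and 8.46 in the A39 pair, 8.33 and 8.86 in the A50 pair, 8.63 and 9.96 in the A58 pair, 9.94 and 10.28 in the A67 pair, 10.28 and 9.75 in the A95 pair and 9.60 and 9.79 in the B96 pair. Both were lowest in A50 replicate 1 and highest in A67 replicate 2, a level that AURKB also had in A95 replicate 1. BUB1B, a kinase-like protein of the spindle checkpoint, read 10.16 and 9.37 in the primary pair, 9.20 and 8.05 in the A39 pair, 8.13 and 8.81 in the A50 pair, 8.79 and 10.12 in the A58 pair, 10.09 and 10.42 in the A67 pair, 10.42 and 9.72 in the A95 pair and 9.72 and 9.26 in the B96 pair. It was low in A58 replicate 1 and high in A58 replicate 2, and both A39 arrays were below its mean. Of the others, TTK, which starts the spindle checkpoint, ranged between 7.70 in A39 replicate 2 and 9.96 in A67 replicate 2, BUB1, a checkpoint kinase at kinetochores, between 8.40 in A39 replicate 2 and 10.49 in A95 replicate 1, NEK2, a centrosome kinase, between 8.07 in A39 replicate 2 and 10.12 in A95 replicate 1, and AURKA between 10.38 in A50 replicate 2 and 11.53 in A67 replicate 2.

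Kinetochore genes held the widest ranges, and CENPE among them had the lowest r with the other members. SPC25 read 9.70 and 9.06 in the primary pair, 9.07 and 7.77 in the A39 pair, 7.75 and 8.36 in the A50 pair, 8.35 and 9.81 in the A58 pair, 9.74 and 10.21 in the A67 pair, 10.19 and 9.90 in the A95 pair and 9.97 and 9.30 in the B96 pair. It was among the lowest in the arrays labelled A39 and A50 except A39 replicate 1 and stayed near 10 in A95 replicate 2 and B96 replicate 1. CENPE, a kinesin-like motor that brings chromosomes to the spindle equator, read 9.83 and 9.05 in the primary pair, 8.99 and 7.76 in the A39 pair, 7.89 and 8.46 in the A50 pair, 8.29 and 9.34 in the A58 pair, 9.15 and 9.70 in the A67 pair, 9.66 and 7.69 in the A95 pair and 8.16 and 9.17 in the B96 pair. Its lowest value was in A95 replicate 2 and its highest in primary replicate 1. NDC80 ranged between 7.88 in A39 replicate 2 and 10.34 in A67 replicate 2, its partner NUF2 between 8.86 in A39 replicate 2 and 11.11 in A67 replicate 2, CENPF, a protein of the outer kinetochore, between 9.19 in A50 replicate 1 and 10.88 in primary replicate 1, and MAD2L1, which encodes the checkpoint inhibitor MAD2, between 9.26 in A39 replicate 2 and 10.97 in A95 replicate 1.

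The genes that control the onset of anaphase were lowest in A50 replicate 1 and highest in A67 replicate 2. CDC20, the activator of the anaphase-promoting complex, ranged between 9.55 in A50 replicate 1 and 11.46 in A67 replicate 2, UBE2C, its ubiquitin-conjugating enzyme, between 9.34 in A50 replicate 1 and 11.42 in A67 replicate 2, and PTTG1 between 10.30 in A50 replicate 1 and 11.56 in A67 replicate 2. PTTG1 has close copies in the genome, and how far they share its probes was not tested. CDC20 read 10.84 and 10.90 in the primary arrays, so it did not share the difference of 0.42 that the block as a whole showed there.

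Motors and other spindle proteins had their lowest values in A39 replicate 2 or A50 replicate 1 and their highest in A67 replicate 2 or A95 replicate 1. KIF11, which pushes spindle poles apart, ranged between 9.79 in A39 replicate 2 and 11.43 in A95 replicate 1, KIF2C, which removes faulty attachments, between 8.75 in A50 replicate 1 and 10.82 in A95 replicate 1, KIF4A, a chromosome-bound motor, between 8.46 in A50 replicate 1 and 10.57 in A67 replicate 2, and KIF14, a motor of cytokinesis, between 7.92 in A50 replicate 1 and 9.97 in A95 replicate 1. KIF20A and KIF23, motors of the central spindle, ranged between 9.10 in A39 replicate 2 and 10.74 in A95 replicate 1 and between 10.12 in A39 replicate 2 and 11.83 in A67 replicate 2. Another row names KIF4A together with its copy KIF4B and was not used. TPX2, which activates AURKA, ranged between 10.01 in A50 replicate 1 and 11.67 in A95 replicate 1, DLGAP5, a spindle-stabilizing protein, between 9.47 in A50 replicate 1 and 11.26 in A67 replicate 2, NUSAP1, a microtubule bundler, between 9.17 in A39 replicate 2 and 10.95 in A67 replicate 2, PRC1, which crosslinks the central spindle, between 9.98 in A39 replicate 2 and 11.80 in A67 replicate 2, and ASPM, a protein of spindle poles, between 9.18 in A39 replicate 2 and 11.15 in A95 replicate 1. HMMR, a spindle protein also known as a hyaluronan receptor, read 9.79 and 9.22 in the primary pair, 9.19 and 8.10 in the A39 pair, 8.06 and 8.57 in the A50 pair, 8.44 and 9.61 in the A58 pair, 9.61 and 10.24 in the A67 pair, 10.28 and 8.11 in the A95 pair and 8.41 and 9.42 in the B96 pair. Its highest value was in A95 replicate 1, and A95 replicate 2, the partner by label, was among its 3 lowest with A39 replicate 2 and A50 replicate 1. That gap of 2.17 was the largest of any member within a label.

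The last roles concern division itself and chromosomes. ANLN, a scaffold of the cleavage furrow, ranged between 10.76 in A39 replicate 2 and 12.17 in A95 replicate 1 and ECT2, the activator of RhoA at that furrow, between 9.74 in A39 replicate 2 and 11.24 in A95 replicate 1. The gene of the proliferation marker Ki-67, MKI67, read 10.74 and 10.28 in the primary pair, 10.13 and 8.79 in the A39 pair, 8.84 and 9.53 in the A50 pair, 9.40 and 10.82 in the A58 pair, 10.62 and 10.91 in the A67 pair, 10.88 and 10.55 in the A95 pair and 10.52 and 10.39 in the B96 pair. TOP2A, the topoisomerase that untangles sister chromatids, read 11.91 and 11.56 in the primary pair, 11.50 and 10.76 in the A39 pair, 10.73 and 11.18 in the A50 pair, 11.08 and 11.78 in the A58 pair, 11.75 and 12.14 in the A67 pair, 12.12 and 11.41 in the A95 pair and 11.51 and 11.59 in the B96 pair. BIRC5, which encodes survivin of the passenger complex, read 9.98 and 10.00 in the primary pair, 9.93 and 8.86 in the A39 pair, 8.80 and 9.39 in the A50 pair, 9.36 and 10.48 in the A58 pair, 10.51 and 10.93 in the A67 pair, 10.88 and 9.70 in the A95 pair and 9.85 and 9.81 in the B96 pair. All 3 were lowest in A39 replicate 2 or A50 replicate 1 and highest in A67 replicate 2, and BIRC5, like CDC20, was level in the primary arrays. BIRC5 had a second, dimmer row, which was left out by the rule.

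The arrays labelled A39 were first set against the primary ones, by the labels the earliest step with hTERT. All 39 genes had lower means in A39, with a median difference of -0.835 log2, where the median over all genes was 0.035 and 43.1% of genes were lower. In 34 of the 39 both A39 arrays lay below both primary arrays, as in 13.5% of all genes. That separation turned mostly on primary replicate 2 and A39 replicate 1, a mutually closest pair. The median absolute difference of the 39 genes between these 2 arrays was 0.080, and TERT read 11.70 and 11.62 in them. BUB1B had a difference of -1.14 ± 0.51 (SE), NEK2 of -1.105 ± 0.53 and NDC80 of -1.10 ± 0.58, the 3 largest. AURKA at -0.485 ± 0.30, PTTG1 at -0.57 ± 0.35 and BIRC5 at -0.595 ± 0.47 were the 3 smallest. The differences were -1.05 ± 0.49 for MKI67, -0.70 ± 0.38 for FOXM1, -0.83 ± 0.59 for CDK1, -0.73 ± 0.35 for CCNB1, -0.835 ± 0.46 for PLK1, -0.83 ± 0.47 for AURKB and -0.605 ± 0.34 for TOP2A. No gene passed limma's test over all 28869 rows: 0 of the 39 and 0% of all rows were called, and each member had an adjusted p of 1.00. At an unadjusted p under 0.05 there was 1 member, BUB1B, lower, against 0.348% of all genes. The median was -0.285 without A39 replicate 2, -1.385 without A39 replicate 1, -0.61 without primary replicate 1 and -1.05 without primary replicate 2, and all 39 differences were below 0 in each of these 4 cases. The unadjusted count was 31 without A39 replicate 1, 4 without primary replicate 2 and 0 without either of the other 2 arrays. The share of all genes lower at that p was 1.67% without A39 replicate 1, 1.43% without primary replicate 2, 0.0762% without primary replicate 1 and 0.169% without A39 replicate 2. Of the 8 fibroblast markers 6 had higher means in A39, with a median difference of 0.19, and their part in this contrast was not tested.

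From passage 39 to passage 95 the comparison covers the whole span of the A labels, and it shares the A39 arrays with the contrast above, so the sizes of both depend on A39 replicate 2. All 39 genes had higher means in A95, with a median difference of 0.885 log2 against 0.050 over all genes, of which 56.4% were higher. The A95 arrays lay above both A39 arrays in 16 of the 39, as in 22.6% of all genes. SPC25 at 1.625 ± 0.52 (SE), BUB1B at 1.445 ± 0.51 and MKI67 at 1.255 ± 0.49 had the largest differences, and CENPE at 0.30 ± 0.66, CCNB2 at 0.44 ± 0.40 and PTTG1 at 0.46 ± 0.35 the smallest. FOXM1 had a difference of 1.22 ± 0.38, CCNB1 of 0.98 ± 0.35, AURKB of 0.92 ± 0.47, BIRC5 of 0.895 ± 0.47, PLK1 of 0.64 ± 0.46, TOP2A of 0.635 ± 0.34 and CDK1 of 0.52 ± 0.59. Limma called 0 of the 39 and 0% of all rows, and the members' adjusted p ran from 0.528 to 0.880. At an unadjusted p under 0.05 there were 12 members, all higher, against 4.62% of all genes. The median was 0.305 without A39 replicate 2, 0.495 without A95 replicate 1, 1.325 without A95 replicate 2 and 1.43 without A39 replicate 1, and the unadjusted count was 0, 2, 28 and 29 in these cases, against 3.85%, 8.02%, 3.69% and 3.43% of all genes higher. Without A39 replicate 2 the difference of CDK1 was -0.14 and that of CENPE -0.315, and without A95 replicate 1 they were -0.36 and -0.685. All 8 fibroblast markers had lower means in A95, with a median difference of -0.67. Among them were the matrix genes LUM at -1.555 ± 0.54 (SE) and COL3A1 at -1.20 ± 0.54, and the part of this difference in the members' values was not tested.

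**Figure D3:**
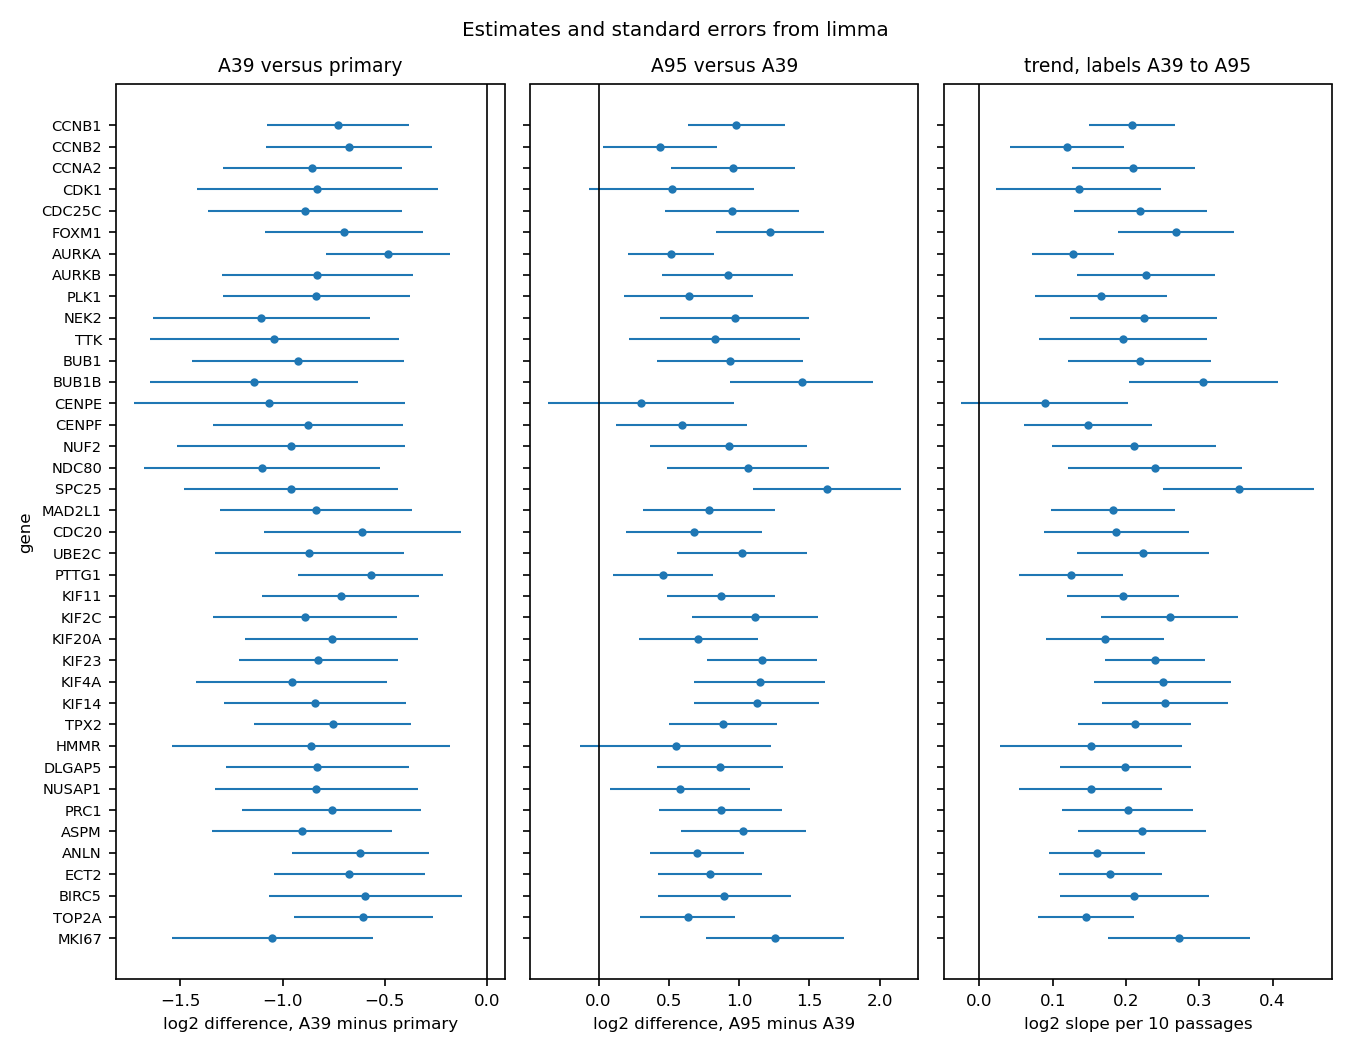
Limma estimates for the 39 genes (vertical axis) as points with standard errors as bars: the log2 difference of A39 minus primary (left), of A95 minus A39 (middle) and the log2 slope per 10 passages over the 10 arrays labelled A (right). All 39 points lie below 0 on the left and above 0 in the other panels, and CENPE has the smallest estimate in the middle, 0.30, and on the right, 0.089.

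A slope on passage was fitted to the 10 arrays whose labels carry an A. All 39 genes had a positive slope, as had 56.6% of all genes. The median slope was 0.21 log2 per 10 passages, against 0.0098 over all genes. SPC25 had a slope of 0.35 ± 0.10 (SE, adjusted p = 0.132), BUB1B of 0.31 ± 0.10 and MKI67 of 0.27 ± 0.097, and the smallest were CENPE at 0.089 ± 0.11, CCNB2 at 0.12 ± 0.078 and PTTG1 at 0.13 ± 0.071. FOXM1 had a slope of 0.27 ± 0.079, CCNB1 of 0.21 ± 0.059, AURKB of 0.23 ± 0.094, BIRC5 of 0.21 ± 0.10, PLK1 of 0.17 ± 0.09, TOP2A of 0.15 ± 0.065 and CDK1 of 0.14 ± 0.11. Limma called 0.281% of all rows and 0 of the 39, whose smallest adjusted p was 0.125, for CCNB1. At an unadjusted p under 0.05 there were 24 of the 39, all with positive slopes, against 9.56% of all genes. This count was 6 without A39 replicate 2 and 6 without A95 replicate 1, 15 without A50 replicate 1 or A50 replicate 2, and 39 without A95 replicate 2, with median slopes of 0.16, 0.18, 0.18, 0.20 and 0.30. The share of all genes with a positive slope at that p was 9.31%, 10.1%, 8.19%, 7.84% and 9.33% in these 5 cases. The 8 fibroblast markers all had negative slopes, with a median of -0.14. The median slope was 0.43 over passages 39 to 67 alone, and the slope of CENPE was -0.015 without A95 replicate 1. Among these 10 arrays 3 of the mutually closest pairs join neighbouring passages, and the test treats all arrays as independent.

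In the steps between neighbouring labels, with all arrays in the fit, no member and 0% of all rows passed in any of the 4. In that fit 0 members had an unadjusted p under 0.05 in any of the steps, a count that depended on single arrays, as the medians below did. In A50 versus A39 all 39 means were lower, as were 49% of all genes, with a median of -0.275, and 0 of the 39 had arrays that did not overlap, against 12% of all genes lower. In A58 versus A50 all 39 were higher, as were 45% of all genes, with a median of 0.71, and 3 did not overlap, CDC25C, TPX2 and ANLN, a share near the 7.55% of all genes. In A67 versus A58 all 39 were higher, as were 49.1% of all genes, with a median of 0.70, and 8 did not overlap, against 12.1%. The shares of all genes at an unadjusted p under 0.05 in the direction of the members were 0.196%, 0.245% and 0.501% in these 3 steps, and 0.517% in the last. In A95 versus A67 the median was -0.205, with 35 means lower, as were 42% of all genes. CENPE at -0.75, HMMR at -0.73 and CDK1 at -0.655 were the lowest. The other 4 were CCNB1, FOXM1, SPC25 and TPX2, higher by 0.030 to 0.11, where 57.2% of all genes were higher, and the arrays of CCNB1 alone did not overlap, against 17.3% of all genes.

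Single arrays decided these medians. That of A50 versus A39 was 0.235 without A39 replicate 1, -0.835 without A39 replicate 2, -0.070 without A50 replicate 1 and -0.515 without A50 replicate 2. That of A58 versus A50 was 1.32 without A58 replicate 1, 0.135 without A58 replicate 2 and 0.47 without A50 replicate 1. For A67 versus A58 it was 0.125 without A58 replicate 1 and 1.28 without A58 replicate 2. For A95 versus A67 it was -0.365 without A67 replicate 1, -0.025 without A67 replicate 2, -0.61 without A95 replicate 1 and 0.165 without A95 replicate 2. Over the 7 groups together, limma's F statistic called 0 of the 39 and 0% of all rows, with 9 members at an unadjusted p under 0.05 against 4.76% of all genes.

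B96 was compared with A95, the nearest passage with the other letter. All 39 genes had lower means in B96, with a median difference of -0.305 against -0.0050 over all genes, of which 50.4% were lower. KIF2C, KIF14 and MKI67 were the 3 genes whose arrays did not overlap, against 9.95% of all genes lower. Limma called 0 of the 39 and 0% of all rows. The direction rested on A95 replicate 1, the array with the highest median of the 14: without it the median was 0.080 and 26 of the 39 differences were above 0. Without A95 replicate 2 the median was -0.665, and 2 members were then at an unadjusted p under 0.05, against 2.72% of all genes lower in that fit. With all arrays there were 0 members and 0.653% of all genes.

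In the late pair of A95 replicate 2 and B96 replicate 1 the members parted from each other more than in the other arrays. Taken relative to the median deviation of the 39, the members' SD was 0.37 in A95 replicate 2 and 0.28 in B96 replicate 1, against 0.12 to 0.23 in the other 12 arrays. CENPE stood at -1.09 log2 from the median of the block in A95 replicate 2 and at -0.71 in B96 replicate 1. HMMR stood at -0.95 and -0.74, and CDK1 at -0.75 and -0.43. On the other side SPC25 stood at 0.69 and 0.67, CCNB1 at 0.51 and 0.42, and FOXM1 at 0.505 and 0.275. In B96 replicate 2 CENPE stood at 0.27, HMMR at 0.24, SPC25 at -0.034 and CCNB1 at -0.26, away from their values in the late pair, while CDK1 at -0.35 and FOXM1 at 0.46 kept the sign they had there. There MAD2L1 at -0.61 and UBE2C at -0.585 were the farthest below the block. These members were picked by their deviation, and no test was made.

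**Figure D4:**
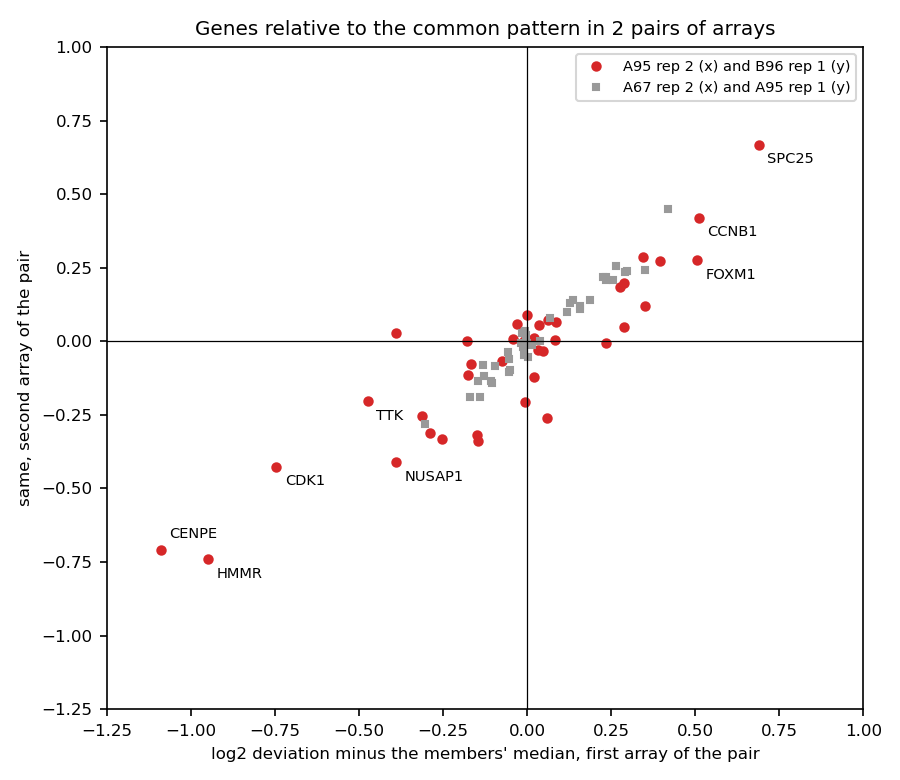
Log2 deviation of each of the 39 genes minus the median of the 39 in the same array, for A95 replicate 2 (horizontal) against B96 replicate 1 (vertical, red circles) and for A67 replicate 2 against A95 replicate 1 (grey squares). CENPE, HMMR and CDK1 lie at the lower left and SPC25, CCNB1 and FOXM1 at the upper right of the red circles, while the grey squares stay between -0.30 and 0.45.

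Other genes of the mitotic programme, from lists chosen by function, were read in the same fits. For comparison, 56.4% of all genes had higher means in A95 than in A39, 56.6% had positive slopes and 9.56% had positive slopes at an unadjusted p under 0.05. Of 8 condensin genes, which compact chromosomes, all 8 had higher means in A95 than in A39, with a median of 0.99, and the trend had 7 of 8 at an unadjusted p under 0.05. NCAPH had a slope of 0.29 ± 0.11 (SE) and NCAPG of 0.26 ± 0.091 per 10 passages. Of 27 other kinetochore genes 25 had positive slopes, with 6 at an unadjusted p under 0.05 and a median slope of 0.13, led by SKA3 at 0.27 ± 0.11 and SKA1 at 0.25 ± 0.10. Other passenger and cytokinesis genes had 17 of 17 positive slopes with a median of 0.17, including the spindle motors KIF15 at 0.33 ± 0.11 and KIFC1 at 0.25 ± 0.078. Other G2/M regulators also had 17 of 17, with a median of 0.15, including GTSE1 at 0.22 ± 0.067 and CDCA3 at 0.22 ± 0.075. The 12 cohesin genes and regulators had 9 positive slopes and a median of 0.096, with SGO1, the protector of centromeric cohesin, at 0.28 ± 0.10 and CDCA5 at 0.19 ± 0.090.

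Not all parts of the machinery had slopes of that size. The 16 core subunits and regulators of the anaphase-promoting complex had a median slope of 0.0098, the same as all genes to 2 digits, with 10 positive. The largest among them were its inhibitor FBXO5 at 0.22 ± 0.10 and UBE2S at 0.10 ± 0.080. The DREAM and MuvB list had 7 of 10 positive slopes and a median of 0.043, with RBL1 at 0.28 ± 0.10 and LIN9 at 0.19 ± 0.083. Of these 10 genes 4 had positive slopes at an unadjusted p under 0.05, against 9.56% of all genes. The 33 DNA replication and G1/S genes, in contrast, had a median slope of 0.21, as the 39 members had, and 32 of their slopes were positive. CCNE2 at 0.34 ± 0.12 and CDC6 at 0.32 ± 0.096 were the largest. The median deviation of this list ran from -0.90 in A50 replicate 1 to 0.95 in A67 replicate 2, so the mitotic genes were not alone in their pattern. Limma called 0 genes of any of these lists in the trend or in A95 versus A39, and whether the lists differ from each other was not tested.

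The genes outside the set whose pattern over the 14 arrays was most like the members' median, among 18338 compared, included the kinetochore genes SKA3 and KNL1 and the cohesin protector SGO1. The 6 closest were SKA3 with a Pearson's r of 0.996, SGO1 with 0.989, SPAG5 with 0.988, MELK with 0.987, KNL1 with 0.986 and CKAP2L with 0.985, and 286 genes had an r of at least 0.9. The most opposite were FAXDC2 with -0.961, SLC17A5 with -0.954, TMEM150A with -0.953 and NXN with -0.953. SLC17A5, a lysosomal sialic acid transporter, ran from 9.37 in A95 replicate 1 to 10.60 in A39 replicate 2. These values only rank genes by likeness, and the arrays they rest on are not independent.

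Inhibitors of cyclin-dependent kinases were set beside the block. CDKN1A, which encodes p21, read 10.75 and 11.16 in the primary pair, 11.11 and 11.70 in the A39 pair, 11.65 and 11.52 in the A50 pair, 11.48 and 10.90 in the A58 pair, 10.66 and 10.38 in the A67 pair, 10.33 and 10.68 in the A95 pair and 10.78 and 10.92 in the B96 pair. Its 2 highest values were in A39 replicate 2 and A50 replicate 1, where the members' median was lowest, and its 2 lowest were in A95 replicate 1 and A67 replicate 2, where that median was highest. CDKN2A, which encodes p16, read 8.80 and 9.29 in the primary pair, 9.25 and 9.59 in the A39 pair, 9.30 and 9.46 in the A50 pair, 9.42 and 8.10 in the A58 pair, 7.85 and 6.33 in the A67 pair, 6.54 and 7.84 in the A95 pair and 7.79 and 8.87 in the B96 pair. It was lowest in A67 replicate 2 and A95 replicate 1, but it was about as high in A39 replicate 1, with members' median 0.034, as in A50 replicate 1, with -1.04. Of the 6 measured inhibitors 4 had lower and 2 higher means in A95 than in A39, with a median of -0.075, and 0 passed limma's test. The difference was -2.23 ± 0.61 (SE) for CDKN2A and -0.90 ± 0.26 for CDKN1A. Their slopes, the 2 largest in size of this list, were -0.46 ± 0.12 and -0.20 ± 0.054 per 10 passages. Of the 6 slopes in the list 3 were above 0 and 3 below, with a median of -0.013.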

How the data were processed

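The authors deposited 1 table of log2 expression values for 14 arrays and 28869 rows, in which the log2 scale is read from the values, 0 to 14.27. Per the labels' protocols, RNA was extracted in biological duplicate and labelled as whole-transcript sense target. Whether and how background was corrected and values normalized, and against which build, is not stated by any label or file header. The medians of the arrays lay between 7.26 and 7.48. Rows were named from the platform's annotation: 19310 had 1 symbol, 19279 of them matched by gene ID to RefSeq, 1752 had several and 7807 none. R 4.3.3 and limma 3.58.1 were used to fit group means (14 arrays, 7 residual degrees of freedom, prior 3.43) and the trend (10 arrays labelled A). Two-sided p-values over the whole table received the Benjamini-Hochberg adjustment, with a threshold of 0.05. The fits were tested on simulated data. No filter was used, and the number of arrays limits precision. Members, lists and tests were chosen with earlier results of these data known. Statistics are printed for MKI67, FOXM1, CDK1, CCNB1, PLK1, AURKB, BUB1B, TOP2A, BIRC5 and the 3 largest and 3 smallest differences of each contrast treated in full. Of each other list the 2 largest slopes are named, and of genes outside the set the 6 most and 4 least alike. Left-out arrays, a replicate block, other scalings, a filter on dim rows, other row choices and other priors were tried.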

Additional observations from a re-analysis of the deposited data

How the results depend on the processing

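The count of members called was 0 in every contrast, the trend and the F test under each alternative run, including the replicate block, quantile normalization and the filter on rows under the 30th percentile of row means. Leaving out single arrays, the median over the members ranged from -1.385 to -0.285 in A39 versus primary, 0.305 to 1.43 in A95 versus A39, -0.835 to 0.235 in A50 versus A39, 0.135 to 1.32 in A58 versus A50, 0.125 to 1.28 in A67 versus A58, -0.61 to 0.165 in A95 versus A67, -0.665 to 0.080 in B96 versus A95, and 0.16 to 0.30 for the slope. In A95 versus A39 the differences then ran from -0.36 to 1.40 for CDK1 and from -0.685 to 1.285 for CENPE, and the slope of CENPE from -0.015 to 0.29. The slope median was 0.43 over passages 39 to 67, where the cause was not tested. For the differences between groups, the other alternatives kept the medians within the spread between replicates (SD 0.50). The slope has another unit and is not covered by that SD. The trend called 0 to 571 of all rows when single arrays were left out and 0 to 729 under the other alternatives, against 81. Centring on array medians left 11 of the 39 slopes at an unadjusted p under 0.05, against 24, where the share of all genes with such positive slopes was 6.26%, against 9.56%. The smallest adjusted p for a member's slope was 0.050 with ranks of passage and 0.066 with passage as a random block. The replicate numbers did not pair the arrays: the correlation of deviations between groups ran from -0.53 to 0.20, with 4 of 21 above 0.1. With the replicate block 18 slopes had an unadjusted p under 0.05 and the median difference of A95 versus A39 was 0.885.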
